A study of Mus musculus with 6 samples.

Results

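Epithelial cells from mammary tissue of C3Tag mice were examined by single-cell RNA sequencing. They expressed at least 4 of 7 marker genes, a set that included Aldh1a3, Ankrd1, Krt80, Gjb2 and Dmkn, and no single marker was required. The cells were chosen by measured values. A member had at least 200 detected genes, under 10% mitochondrial unique molecular identifiers (UMIs, which count RNA molecules), at least 1 UMI of the epithelial gene Epcam, and no UMI of Ptprc, which encodes the pan-leukocyte surface protein CD45. It also had to hold at least 1 UMI of 4 or more of the 7 marker genes Ankrd1, Ccl20, Gjb2, Dmkn, Aldh1a3, Krt80 and Klk10. At most 2 of the 6 genes Nppb, Aqp3, Klk8, Inhba, Tnnt2 and Acan, and at most 2 of the 5 cell cycle genes Cenpf, Ube2c, Ccnb1, Cdc20 and Top2a, could be detected. These limits left 379 members among 10064 Epcam-positive Ptprc-negative cells (3.77%), themselves part of 22244 cells kept from 23835 barcodes.

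C3Tag mice are FVB/NJ females that carry the SV40 large T antigen under the C3(1) promoter, and every group carried the transgene, so there was no wild-type gland. The 6 libraries comprised 2 Prepuberty glands (whole gland, 5 weeks of age), 2 DCIS glands (whole gland that held in situ lesions, 14 weeks) and 2 Tumor libraries (palpable tumour, over 18 weeks). The labels do not say whether the 2 libraries of a state came from different animals, so every p-value measures the spread between libraries, which may be technical. The labels give 1 dissociation and 1 library kit for all samples, whereas the study's methods name another dissociation for tumours and a later kit for Tumor 2. If the methods hold, dissociation and disease state cannot be told apart in any comparison with Tumor.

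The marker genes have different roles. Aldh1a3 makes retinoic acid from retinal, Ankrd1 is a much used transcriptional target of the YAP and TEAD factors of the Hippo pathway, and Krt80 is an epithelial keratin. Gjb2 forms gap junction channels, Dmkn is a secreted protein best known from differentiating epidermis, Ccl20 is a chemokine for cells that carry the receptor Ccr6, and Klk10 is a secreted kallikrein-related protein. In the mammary gland the luminal layer holds hormone-sensing cells and secretory progenitors, the latter known for Elf5, Kit and milk and defence proteins, while contractile myoepithelial cells form the basal layer.

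The members held more UMIs than the other Epcam-positive cells in the 4 Prepuberty and DCIS libraries and fewer in the 2 Tumor libraries. The median member held 16350, 38606, 9697.5, 17659, 10585.5 and 11985.5 UMIs, against 11227, 6305, 8333, 8054, 12728 and 16609 in the other cells. Lists of 6 values give the 2 Prepuberty libraries first, then both DCIS and both Tumor libraries, replicate 1 before replicate 2. Prepuberty 2 stood apart, with 32 members whose median depth was the highest and only 265 Epcam-positive cells, and results that rest on it are also given without it. Depth matters because a rule that asks for detected genes is met more easily by deeply sequenced cells. From 0 to 5 members of a library were among its highest doublet scores, no member shared its barcode with a member of another library, and the members of a library summed to between 349107 and 1978254 UMIs.

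Members made up a smaller share of the epithelial cells in Tumor than in the gland libraries. They were 56 of 1064 Epcam-positive cells in Prepuberty 1 (5.26%, exact 95% binomial interval 4% to 6.78%) and 32 of 265 in Prepuberty 2 (12.1%, 8.41% to 16.6%). In DCIS they were 132 of 1735 (7.61%, 6.40% to 8.96%) and 99 of 1707 (5.80%, 4.74% to 7.02%). In Tumor they were 32 of 3547 (0.902%, 0.618% to 1.27%) and 28 of 1746 (1.60%, 1.07% to 2.31%), so both Tumor shares lay below all 4 others. The intervals cover counting error only, and the rule makes the shares a description: 2 against 2 libraries cannot give an exact two-sided permutation p under 0.33, and no test was run. The mean share was 8.67% in Prepuberty, 6.70% in DCIS and 1.25% in Tumor, a ratio of 0.187 for Tumor to DCIS and 0.773 for DCIS to Prepuberty. Without Prepuberty 2 the latter ratio was 1.27, and over all kept cells in place of epithelial cells it was 3.07, so the order of Prepuberty and DCIS depends on that library and on the denominator. The gap between Tumor and Prepuberty also depends on the denominator. Over all kept cells the mean share was 1.08% in Prepuberty, 3.32% in DCIS and 0.895% in Tumor, and Tumor 2 (1.07%) lay above Prepuberty 2 (0.888%). With every cell thinned to 5000 UMIs and shallower cells left out, the shares were 5.31%, 7.98%, 7.95%, 4.81%, 0.659% and 1.03%, and the Tumor libraries remained the lowest.

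**Figure D1:**
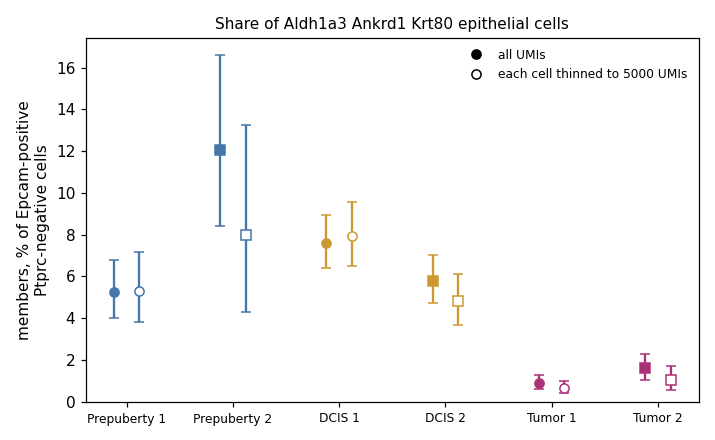
Members as a percent of Epcam-positive Ptprc-negative cells (vertical axis) in each library, with exact 95% binomial intervals that cover counting error only. Filled points use all UMIs and open points use cells thinned to 5000 UMIs. Both Tumor points lie under 2% and the other points between 4.81% and 12.1%.

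The limits of the rule removed different cells in each state. Cells with 4 or more marker genes numbered 210, 43, 376, 281, 400 and 198, so in Tumor the marker genes were found together in 11.3% of Epcam-positive cells of each library, against 16.2% to 21.7% in the gland libraries. The limit on cell cycle genes removed 73.3%, 23.3%, 62.2%, 64.8%, 85.3% and 72.2% of them. The limit on Nppb, Aqp3, Klk8, Inhba, Tnnt2 and Acan removed 0%, 4.65%, 12.2%, 3.56%, 68.3% and 61.6%. The small member share of Tumor therefore rests in part on these 6 genes, and without that limit the ratio of Tumor to DCIS was 0.344. No cell that was Ptprc-positive and Epcam-negative reached 4 marker genes in any library. A count of 0 among the 39 to 240 such cells of a library allows a share of up to 7.69% in Prepuberty 1 and of 1.25% to 4.17% in the others.

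Most members sat close to the threshold. Of the 379, 206 held exactly 4 marker genes, 114 held 5, 49 held 6 and 10 held all 7. Just inside the threshold, cells with exactly 4 markers numbered 29, 15, 77, 42, 27 and 16, and the 7 markers summed to 1024, 1042, 2472, 1179, 1190 and 1636 CPM (UMIs of a gene scaled to a common total of all UMIs of those cells). Just outside, cells with exactly 3 markers numbered 45, 13, 128, 81, 62 and 52, and their markers summed to 841, 1239, 1890, 984, 936 and 1077 CPM. The 2 sets thus overlapped in marker level, and the sum was higher just outside than just inside in Prepuberty 2.

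The marker that defined the members varied between libraries. Ankrd1 was detected in 55.4%, 46.9%, 82.6%, 88.9%, 21.9% and 60.7% of members, highest in both DCIS libraries and lowest in Tumor 1. Ccl20 was found in 53.6%, 40.6%, 47.7%, 46.5% and 34.4% of members in the first 5 libraries but in 3.57% in Tumor 2. Klk10 was found in 64.3%, 31.3%, 66.7%, 34.3%, 96.9% and 53.6%, so nearly every member of Tumor 1 held it. Detection was more even for Dmkn, at 71.9% to 100%, and for Aldh1a3, at 67.4% to 96.9%. Gjb2 ranged from 46.9% in Tumor 1 to 87.5% in Prepuberty 2, and Krt80 from 38.6% in DCIS 1 to 89.3% in Tumor 2. Among Ptprc-positive Epcam-negative cells, whose median depth was 2722 to 6842 UMIs, at most 13.4% held a UMI of any marker, reached by Dmkn in DCIS 1. These values were used to choose the cells and are given with no test.

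**Figure D2:**
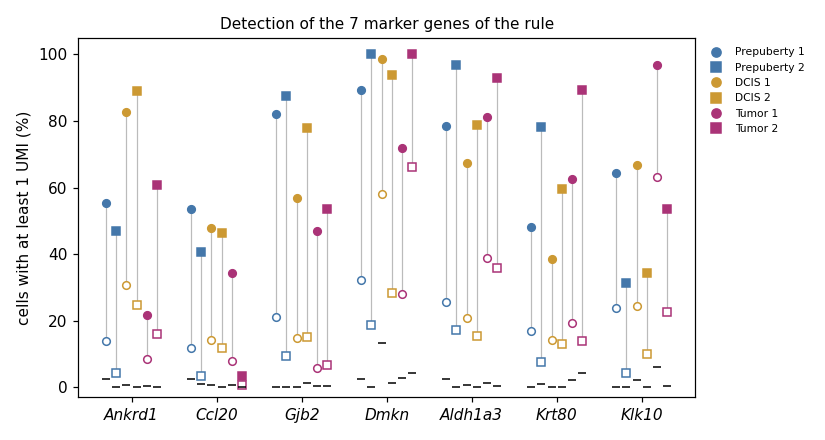
Percent of cells with at least 1 UMI of each of the 7 marker genes (vertical axis), by library. Filled points are members, open points the other Epcam-positive Ptprc-negative cells, and dashes Ptprc-positive Epcam-negative cells. Ankrd1 in members spans 21.9% to 88.9%, and Klk10 spans 31.3% to 96.9%.

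Marker levels changed order in the same way. Ankrd1 stood at 136, 58.9, 447, 698, 40.1 and 600 CPM in members, so the 2 Tumor libraries differed widely from each other. Aldh1a3 stood at 202, 459, 180, 157, 312 and 416 CPM, and its ranges in the 3 states were closer to each other. Dmkn stood at 286, 434, 1066, 331, 149 and 1440 CPM, with its lowest and highest values both in Tumor. In the fit across states described below, none of the 7 markers passed the threshold in any contrast, but a gene that chose the cells is no independent measure.

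On the GRCm38 build the 7 marker genes lay apart, except that 3 were on chromosome 7. Ccl20 spans chr1:83116766-83119167 on the plus strand, Gjb2 chr14:57098600-57104702, Krt80 chr15:101347444-101370162 and Ankrd1 chr19:36111961-36120099, the last 3 on the minus strand. On chromosome 7, Dmkn spans chr7:30763756-30781063 and Klk10 chr7:43781035-43785410 on the plus strand, and Aldh1a3 chr7:66390890-66427517 on the minus strand. RefSeq promoters (GRCm38.p6, 250 bases before to 50 after a start site) were given for 5 of the 7 genes, in 7 entries. The RefSeq start of Ankrd1, at chr19:36119844, lies inside the gene span above, whose annotation reaches further upstream, so its 2 matches lie before that start and within the span. They were searched on both strands for GGAATG, the core bound by TEAD factors, for TGANTCA, the site of AP-1, and for GGGANTTTC, an NF-kB site, because Ankrd1 is a TEAD target and genes of the other pathways were among the lists below. The matches are shown with the motif in capitals, 5′ to 3′ on the strand of the gene.
Ankrd1, 210 bases before the RefSeq start, chr19:36120037-36120066: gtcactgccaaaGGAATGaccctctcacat
Ankrd1, 123 bases before the RefSeq start, chr19:36119950-36119979: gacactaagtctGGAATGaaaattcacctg
Ccl20, 45 bases before the start, the reverse complement of the TEAD core, chr1:83116709-83116738: ccttcttgtgtaCATTCCcagtattttgct
Dmkn, 89 bases before the start, AP-1, chr7:30763655-30763684: gtggataggcccTGAGTCActggaggaggg
Dmkn, 82 bases before another start, AP-1, chr7:30776311-30776340: cgcgggaagctaTGAGTCAtggaaggaaag
The TEAD core occurred in 14.7% of 32851 promoters of the same length, the AP-1 site in 7.81% and the NF-kB letters in 1.11%. The NF-kB letters had no match in the marker promoters. A match is a description of letters in a window and not evidence of binding.

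Genes that differed between members and other cells were next described within each library, as the log2 ratio of CPM plus 5 between members and the other Epcam-positive Ptprc-negative cells. This contrast was fixed by the choice of the cells, so it has no test. Over 8369 genes outside the rule with at least 10 CPM, 456 were higher in members in all 6 libraries (5.45%) and 791 were lower in all 6 (9.45%). Without Prepuberty 2 the first count was 656, without Tumor 1 it was 756, and against other cells within the same limits of the rule it was 762. None of the genes was 2-fold or more higher in every library, whereas 19 (0.227%) were 2-fold or more lower in every library. These counts were 5 and 45 against other cells within the same limits, 3 and 31 with each cell thinned, and 0 and 50 with a pseudocount of 1.

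The 20 genes with the highest ratio in their weakest library included secreted proteins and ligands. Wfdc18, a secreted protein of the whey acidic protein family, stood at 7111, 11166, 4117, 6722, 2211 and 11568 CPM in members and at 4409, 3857, 2584, 3350, 606 and 1107 CPM in the other cells. The log2 ratio ran from 0.67 in DCIS 1 to 3.38 in Tumor 2. Edn1, which encodes the peptide endothelin, stood at 113, 90.0, 149, 200, 20.1 and 79.0 CPM against 39.4, 59.1, 42.3, 59.7, 8.52 and 8.71 CPM. Its level was lowest in Tumor 1 in both kinds of cell, while its log2 ratio lay between 0.57 and 2.61. Tgfb2, a ligand of the TGF-beta family, stood at 104, 113, 66.0, 158, 17.2 and 57.9 CPM against 60.0, 44.6, 32.5, 67.4, 8.61 and 13.2 CPM. Hbegf, a ligand of the EGF receptor, stood at 95.4, 109, 177, 157, 1762 and 192 CPM against 42.0, 74.2, 82.5, 62.4, 1070 and 111 CPM. Tumor 1 thus had the highest Hbegf in members and others alike, while the log2 ratio between them, 0.72 there, was lowest in Prepuberty 2 at 0.53. Lcn2, which binds iron-carrying siderophores, stood at 4002, 5911, 3073, 3472, 1928 and 1480 CPM against 2357, 2616, 2081, 2579, 1226 and 263 CPM.

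They also included adhesion and junction genes. Ceacam1, a cell adhesion molecule, had the highest ratio in its weakest library, 0.72 in Prepuberty 1, and stood at 176, 194, 101, 198, 65.9 and 226 CPM in members against 106, 92.3, 58.0, 93.6, 29.3 and 23.9 CPM. Cldn3 and Cldn4 of the tight junction had log2 ratios of 0.44 to 1.88 and of 0.40 to 2.60, and Cgn, a tight junction scaffold, of 0.52 to 1.24. Prkci, an atypical protein kinase C of the apical polarity complex, ranged from 0.42 to 1.20. Sbsn, a secreted protein of stratified epithelia, ranged from 0.56 to 1.86. The remaining genes of highest ratio were Dusp5, a phosphatase that acts on ERK, the transcription factor Klf4, the NF-kB inhibitor Nfkbia, the kinase Plk2, and Ogfrl1, Basp1, Noct, Fam107b and Osbpl3, each between 0.41 and 2.06. Cells just outside the rule, with exactly 3 markers, reached or passed the member level of some of these genes. Lcn2 stood at 5566, 4674, 3440, 3444, 2062 and 824 CPM in them, above members in Prepuberty 1, DCIS 1 and Tumor 1. Cldn4 in Prepuberty 2 was at 778 CPM against 553 CPM in members, and Ceacam1 in the same library at 255 CPM against 194 CPM. Tgfb2 was lower than in members in all 6 libraries, at 85.8, 87.9, 33.4, 109, 10.2 and 15.4 CPM, but cells removed for cell cycle genes alone held 119 CPM in Prepuberty 1 against 104 CPM.

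The 10 genes with the lowest ratios included genes of matrix and of mitosis. Sparc, a secreted matrix glycoprotein, stood at 154, 85.0, 40.0, 20.7, 94.5 and 163 CPM in members against 494, 608, 470, 365, 471 and 613 CPM in the others. The ranges did not overlap over the 6 libraries. Vim, the intermediate filament of mesenchymal cells, stood at 50.4, 24.4, 10.8, 5.06, 65.9 and 31.6 CPM against 122, 214, 126, 79.1, 358 and 318 CPM. Bgn, Fstl1, Apoe and Lrp1, genes of matrix and lipoprotein handling, had log2 ratios of -1.11 to -3.48 across the libraries. Akr1b3, an aldose reductase, ranged from -1.20 to -1.79. The mitotic genes Ccnb2, Cenpa and Hmmr ranged from -1.15 to -4.45, and their place here follows in part from the limit of the rule on cell cycle genes.

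**Figure D3:**
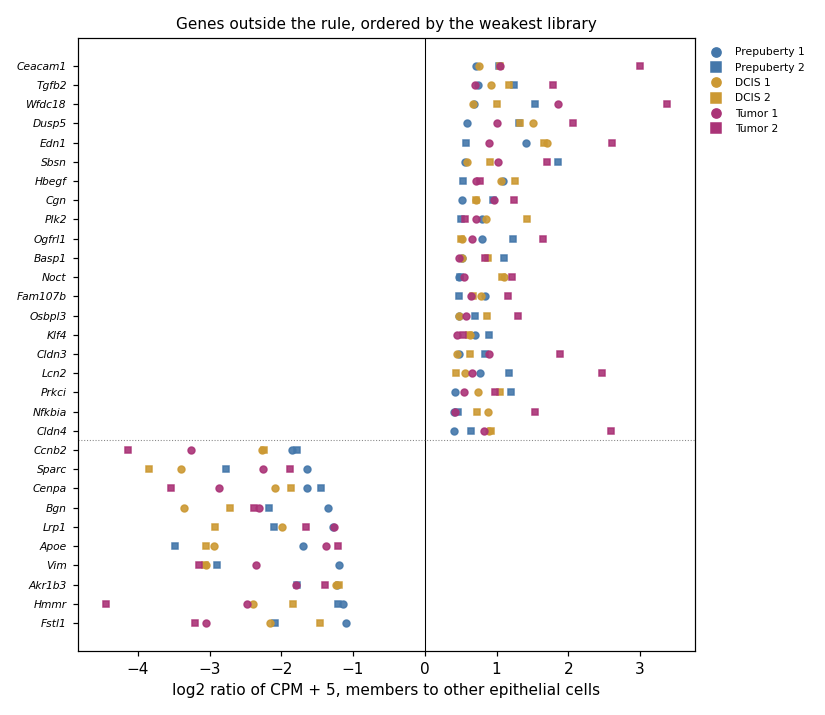
Log2 ratio of CPM plus 5 between members and the other Epcam-positive Ptprc-negative cells (horizontal axis), 1 point per library, for the 20 genes outside the rule that were highest and, under the dotted line, the 10 that were lowest in their weakest library. Wfdc18 in Tumor 2 reaches 3.38, and Sparc lies between -1.65 and -3.85.

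Lists of cell type markers were compared in the same way, beside a median log2 ratio of -0.05 over all genes. The epithelial list had 11 measured genes outside the rule, of which 9 were higher in members in all 6 libraries and none was lower, with a median of 0.71. Krt18, a simple epithelial keratin, Krt7 and Cldn7 were among them, with mean log2 ratios of 0.89, 0.97 and 0.62. Of 8 measured fibroblast genes, 7 were lower in all 6 libraries, with a median of -1.94, and the list summed to 37.2 to 427 CPM in members against 433 to 1401 CPM in the other cells. Macrophage markers summed to 25.2 to 80.2 CPM in members and to 10949 to 34444 CPM in Ptprc-positive Epcam-negative cells, and lymphocyte markers to at most 0.9 CPM. The members thus held epithelial markers that the rule did not use, and little RNA of immune cell markers. Both follow in part from the rule, which asked for Epcam and for no Ptprc. The other epithelial cells held 24.1 to 356 CPM of macrophage markers. Members held more of them than these cells in Tumor 2 (39.5 against 24.1 CPM) and less in the other libraries.

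Within the epithelium, the members resembled the secretory luminal side more than the other epithelial cells did. The secretory luminal progenitor list summed to 13603, 20181, 9166, 12314, 7866 and 15768 CPM in members against 8383, 7595, 6074, 7767, 3443 and 2017 CPM in the others. Of its 12 measured genes, 5 were higher in all 6 libraries and none was lower, with a median of 0.80. Besides Wfdc18 and Lcn2 these were Ltf, which encodes lactoferrin (0.24 to 4.21), the surface antigen gene Plet1 (0.33 to 1.41), and Elf5, the transcription factor of alveolar progenitors (0.01 to 1.89). The hormone-sensing list had a median of 0.04, with none of 12 genes higher and 1 lower in all 6. Of 13 myoepithelial genes, 6 were lower in all 6 libraries and 1 was higher, with a median of -1.55. Acta2, the smooth muscle actin of contractile cells, stood at 15.3, 6.73, 10.8, 20.7, 0 and 0 CPM in members against 185, 1082, 516, 980, 35.5 and 1.95 CPM in the others. Krt17 was the exception, at 289, 494, 1119, 675, 1338 and 442 CPM against 101, 449, 603, 602, 838 and 350 CPM.

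Cells just outside the rule also held the secretory list, and cells with none of the 7 markers held less of it. The secretory luminal progenitor list summed to 18990, 17246, 10816, 11871, 7537 and 8478 CPM in cells with exactly 3 markers, but to 1327, 2209, 2254, 2651, 3624 and 2036 CPM in cells with 0 markers. In cells removed for over 2 cell cycle genes alone it summed to 13562 CPM in Prepuberty 1, 7613 and 10884 CPM in DCIS, and 5556 and 7261 CPM in Tumor, with too few such cells in Prepuberty 2. In cells removed for over 2 of the 6 genes of the Nppb group, whatever their cell cycle genes, it summed to 3773, 4372, 2822 and 2866 CPM in DCIS and Tumor, under every member value, and Prepuberty 2 held 2 cells of the Nppb group, too few for a sum. The myoepithelial list summed to 832, 1009, 1783, 969.5, 1914 and 1714 CPM in members, to 670, 3270, 2057, 3085, 1465 and 2640 CPM in the other cells and to 1245, 4513, 4861, 6683, 1195 and 2215 CPM in cells with 0 markers. Members thus held more of it than the other cells in Prepuberty 1 and Tumor 1, and more than the cells with 0 markers in Tumor 1, and less elsewhere.

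**Figure D4:**
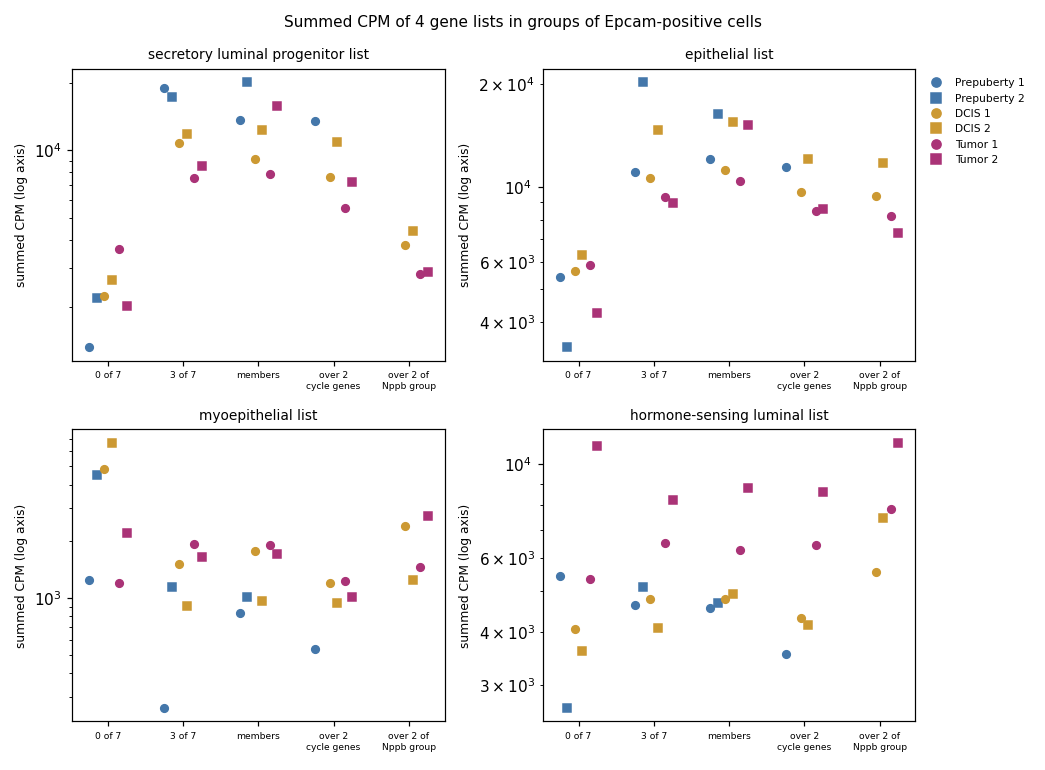
Summed CPM on a log axis of 4 gene lists in Epcam-positive Ptprc-negative cells with 0 of 7 markers, with exactly 3, in members, and in cells with 4 or more markers that were removed for over 2 cell cycle genes alone or over 2 of the 6 genes of the Nppb group. Each point is a library with at least 10 such cells. The secretory luminal progenitor list lies between 7866 and 20181 CPM in members and between 2822 and 4372 CPM in the Nppb group.

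The lists of the pathways of the marker genes are read beside 5.45% of all genes higher and 9.45% lower in all 6 libraries. Of 20 measured YAP and TEAD targets outside the rule, 6 were higher in members in all 6 libraries and 2 were lower, with a median of 0.13. Cyr61, a secreted matricellular target, stood at 848, 665, 893, 1292, 719 and 392 CPM against 363, 395, 700, 662, 301 and 242 CPM. F3, which encodes tissue factor, and Amotl2, an angiomotin that binds YAP, were also higher in all 6, at log2 ratios of 0.23 to 1.34 and of 0.32 to 1.09, while Axl and Igfbp3 were the lower ones. Of 13 retinoic acid genes outside the rule, 1 was higher in all 6, Rdh10, which makes the retinal that Aldh1a3 uses, at 0.25 to 0.98, and 3 were lower. Of 35 NF-kB targets, 9 were higher and 3 were lower, with a median of 0.18. Summed without the rule genes Ankrd1 and Ccl20, both lists were higher in members than in the other epithelial cells in all 6 libraries. The log2 ratios were 0.20 to 0.69 for YAP and TEAD targets and 0.03 to 1.38 for NF-kB targets, with no test. Lcn2, also on the secretory list, made up 4002 and 5911 CPM of the NF-kB sums of 8574 and 9636 CPM in Prepuberty members. In the other cells it stood at 2357 and 2616 CPM of 8107 and 9417 CPM. Cells with 0 markers held 11854, 10006, 11441, 6884, 4853 and 1215 CPM of NF-kB targets. This was above members in both Prepuberty libraries and DCIS 1, and under them in the others. Junction and desmosome genes had 7 of 18 higher and none lower (median 0.38), among them Cldn1 at 0.34 to 1.48. Squamous genes had 3 of 16 higher (median 0.16), and hypoxia and glycolysis genes had 1 of 25 higher and 9 lower (median -0.32). Proliferation genes had 15 of 30 lower and none higher (median -0.68), a count that the rule fixed in part. Among 26 immediate early and stress genes 5 were higher, with a median of 0.06.

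The remaining lists were read in the same way, with counts in all 6 libraries. Other keratins had 4 of 9 higher and 1 lower (median 0.52), kallikreins 1 of 4 higher (median 0.62), connexins none of 3 (median -0.07), and EGF ligands and feedback genes 2 of 14 higher (median 0.12). Interferon genes had 2 of 26 lower (median -0.24), MHC class I genes 3 of 13 lower (median -0.20), p53 targets 1 of 14 higher and 2 lower (median -0.12), and mesenchymal transition genes 2 of 23 higher and 10 lower (median -0.44). Endothelial markers had 3 of 5 lower (median -0.94), and Schwann cell and pericyte markers none of 4 and of 2 in either direction.

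The transgene was detected in members of each state. Cells were thinned to 5000 UMIs, which left out 0 to 15 shallower members and 84 to 445 other cells of a library. A UMI of the T antigen was then found in 7.41%, 0%, 12.8%, 7.37%, 29.0% and 14.3% of members. The exact 95% interval for the 0 of 32 members in Prepuberty 2 reached 10.9%. The other Epcam-positive cells stood at 3.13%, 0%, 12.3%, 3.99%, 53.1% and 25.3%. Ptprc-positive Epcam-negative cells, which should lack the T antigen, stood at 0%, 0%, 1.30%, 0%, 7.78% and 0.962%. Exact intervals for their 3 values of 0 reached 16.8%, 10% and 8.04%. Without thinning the member shares were 12.5%, 3.13%, 24.2%, 19.2%, 50% and 46.4%. The immune cells of both Prepuberty libraries and of DCIS 2 were too few to set a background there. In both Tumor libraries it lay under that of the other epithelial cells, with exact intervals of 14.2% to 48.0% and 4.03% to 32.7% against 51.3% to 54.9% and 23.1% to 27.5%, which overlap in Tumor 2. Its level in members was 9, 0.841, 30.5, 12.1, 146 and 47.4 CPM, which did not pass the test between Tumor and Prepuberty (log2 fold change 4.06, SE 0.92, adjusted p = 0.093). With 1 library left out this log2 fold change ran from 2.73 to 6.42.

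The states were then compared within the members, on UMIs summed per library, to ask which genes differed in these cells from gland to in situ lesion to tumour. Few genes passed the threshold in the quasi-likelihood test of edgeR over 8837 genes with p-values adjusted over all of them. Between DCIS and Prepuberty 1 gene passed (0.0113%), between Tumor and DCIS 1 (0.0113%), and between Tumor and Prepuberty 5 (0.0566%). At an unadjusted p under 0.05 there were 965, 1511 and 1662 genes, and DESeq2 with its own adjustment called 44, 129 and 242. The count of calls is thus small with 2 libraries a state and depends on the tool.

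Sox11, a transcription factor of embryonic progenitors, rose in DCIS and in Tumor. Members held 0.9, 0.841, 60.9, 34.9, 54.4 and 52.7 CPM, from 1, 1, 96, 69, 19 and 20 UMIs, so it was near 0 in both Prepuberty libraries and similar in the other 4. The log2 fold change was 5.70 (SE 0.61, adjusted p = 0.044) for DCIS against Prepuberty, and the ratio of pooled CPM was 53.4, with a 95% counting interval of 14.5 to 444. Against Prepuberty, Tumor members were 61.5 times higher (15.9 to 526, adjusted p = 0.035). The other epithelial cells had the same order of Prepuberty against the rest, at 1.62, 1.32, 59.8, 22.4, 67.9 and 103 CPM, and immune cells stayed at or under 2.01 CPM. The DCIS call was lost without Prepuberty 1, Prepuberty 2, DCIS 1, Tumor 1 or Tumor 2 (adjusted p = 0.069 to 0.15), while the log2 fold change with 1 library left out stayed between 5.25 and 5.98. It was also lost with 3 or more markers in the rule (adjusted p = 0.077), with library sums thinned (adjusted p = 0.13) and with only the 4 libraries compared in the fit (adjusted p = 0.072). The Tumor call was lost without Prepuberty 1 (adjusted p = 0.068), Prepuberty 2 (adjusted p = 0.10) or the highest doublet scores (adjusted p = 0.081).

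Cdkn2a, which encodes cell cycle inhibitors that act on the RB and p53 pathways, rose in Tumor. It stood at 0, 0, 389, 76.3, 1120 and 1040 CPM in members, not detected in either Prepuberty library and highest in both Tumor libraries. With 3 UMIs over the Prepuberty group as a floor it was at least 826.5-fold higher in Tumor (adjusted p = 0.035) and at least 165-fold higher in DCIS, a difference that did not pass (adjusted p = 0.11). The other epithelial cells stood at 2.08, 0, 340, 102, 1363 and 1874 CPM. The Tumor call was lost without Prepuberty 1 (adjusted p = 0.061), Prepuberty 2 (adjusted p = 0.073) or the highest doublet scores (adjusted p = 0.081). Slc29a1, an equilibrative nucleoside transporter, stood at 11.7, 16.8, 33.6, 29.3, 169 and 137 CPM and rose in Tumor over Prepuberty (log2 fold change 3.15, SE 0.41, adjusted p = 0.049). Its call was lost without Prepuberty 1 (adjusted p = 0.086), Prepuberty 2 (adjusted p = 0.12), DCIS 2 (adjusted p = 0.053) or the highest doublet scores (adjusted p = 0.081), and with only the libraries compared (adjusted p = 0.064). The other epithelial cells held 21.6, 29.6, 39.3, 35.7, 134 and 147 CPM of it, so its order of states was the same outside the members.

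A chemokine and an acute-phase gene fell in Tumor. Ccl2, which attracts monocytes, stood at 554, 322, 212, 249, 5.73 and 5.27 CPM in members, from 616, 383, 334, 493, 2 and 2 UMIs. It fell in Tumor against DCIS (log2 fold change -5.77, SE 0.57, adjusted p = 0.023), with pooled CPM 42.4 times higher in DCIS (counting interval 16.5 to 156), and in Tumor against Prepuberty (-6.59, SE 0.57, adjusted p = 0.0075). The first call was lost without DCIS 1 (adjusted p = 0.079), DCIS 2 (adjusted p = 0.085) or the highest doublet scores (adjusted p = 0.091) and with 5 or more markers (adjusted p = 0.11), and the second without those scores (adjusted p = 0.081). Outside the members Ccl2 was higher except in the other epithelial cells of Tumor 2, at 1752, 2182, 871, 456, 37.1 and 2.22 CPM in the other epithelial cells and 3454, 2708, 1013, 507, 599 and 323 CPM in immune cells. Members lay under the immune cells in all 6 libraries, and what RNA from other cells adds to the member values was not tested. Saa3, a serum amyloid A gene, stood at 555, 207, 18.4, 44.5, 0 and 0 CPM. Tumor members were at least 91.2-fold lower than Prepuberty members (3 UMIs over the Tumor group, adjusted p = 0.049), and the call was lost without Prepuberty 1 (adjusted p = 0.061), Tumor 2 (adjusted p = 0.052) or the highest doublet scores (adjusted p = 0.081), at a mitochondrial limit of 5% (adjusted p = 0.056) and with a replicate block (adjusted p = 0.056). Immune cells held 2603, 801, 4352, 606, 56.5 and 21.6 CPM of Saa3, and what their RNA adds was not tested.

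**Figure D5:**
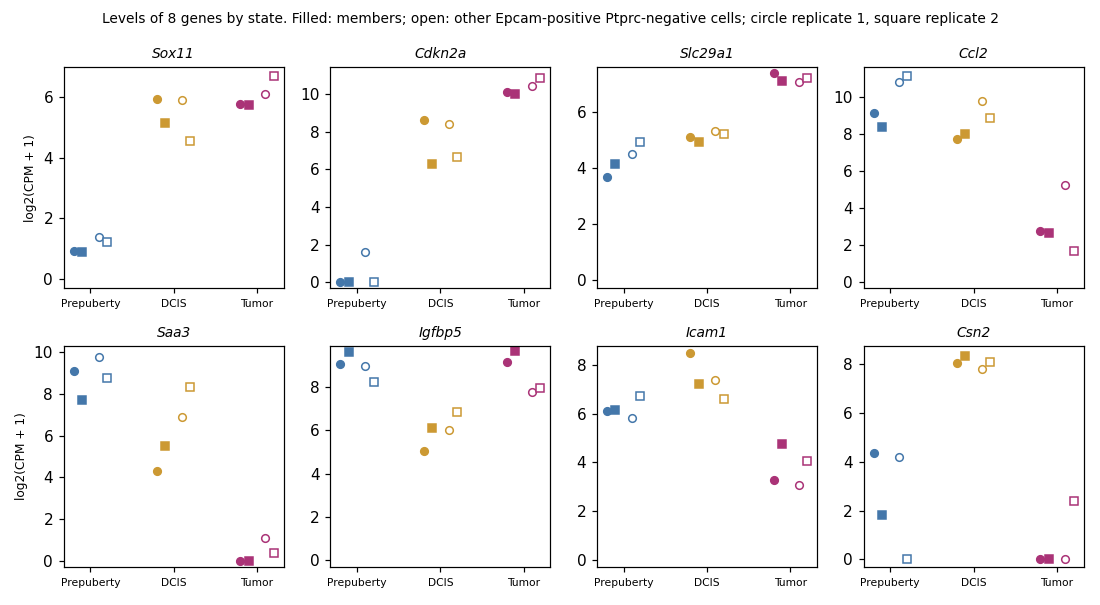
Levels of 8 genes as log2(CPM + 1) (vertical axis) by state, with filled points for members and open points for the other Epcam-positive Ptprc-negative cells of the same libraries, circles for replicate 1 and squares for replicate 2. Sox11 and Cdkn2a are near 0 CPM in Prepuberty members, and Ccl2 and Saa3 are under 6 CPM in Tumor members.

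The genes next in order of p did not pass. Igfbp5, which binds insulin-like growth factors, stood at 533, 767, 32.4, 67.7, 570 and 798 CPM, so both DCIS libraries lay under all 4 others (adjusted p = 0.11 against Prepuberty and 0.054 for Tumor against DCIS). The casein genes Csn2 and Csn1s2a were highest in both DCIS libraries. Csn2, which encodes beta-casein, stood at 19.8, 2.52, 266, 320, 0 and 0 CPM (adjusted p = 0.14 and 0.054), with the other epithelial cells at 17.6, 0, 225, 272, 0.0184 and 4.31 CPM. Csn1s2a stood at 47.7, 7.57, 803, 514, 0 and 7.90 CPM (adjusted p = 0.054 for Tumor against DCIS). Icam1, an adhesion receptor for leukocytes, stood at 68.4, 71.5, 364, 149, 8.59 and 26.3 CPM (log2 fold change -4.27 for Tumor against DCIS, adjusted p = 0.054). Klk6, Asprv1, Ung and Gata6 between DCIS and Prepuberty (adjusted p = 0.14 each) and Gadd45b, Hist1h1c and Eif4a2 between Tumor and DCIS (adjusted p = 0.054 each) completed the 8 smallest p-values of each contrast. Epcam, whose detection the rule required, stood at 1156, 1322, 2738, 1578, 3334 and 4376 CPM, given as a description.

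The lists were read in the same fits by how many genes reached an unadjusted p under 0.05, beside the share over all genes tested. NF-kB targets leaned down in Tumor. Without the rule gene Ccl20, which is left out of the counts and sums of this list, 19 of 36 had a lower value against DCIS at that level and none a higher one, beside 9.14% of all genes lower and 7.96% higher, and the median log2 fold change was -1.27 against 0.01 over all genes. Of these, 1 passed after adjustment, Ccl2. Against Prepuberty, 14 of 36 were lower and none was higher, beside 9.11% lower and 9.7% higher of all genes, with a median of -0.89, and Ccl2 and Saa3 passed. Nfkbia stood at 912, 1143, 2309, 1858, 908 and 416 CPM (log2 fold change -1.97 for Tumor against DCIS, adjusted p = 0.14). Over the alternatives the count against DCIS, with Ccl20 included, stayed between 15 and 27 and the median between -1.12 and -1.61. The summed list stood at 8574, 9636, 8413, 8372, 5107 and 3080 CPM in members, at 8107, 9417, 7116, 6902, 3457 and 1178 CPM in the other epithelial cells and at 25613, 10456, 15502, 9514, 9061 and 2503 CPM in immune cells. The 3 kinds of cell thus had lower sums in both Tumor libraries than in the 4 gland libraries.

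Squamous genes leaned up in DCIS. Against Prepuberty, 10 of 16 had a higher value at an unadjusted p under 0.05 and none a lower one, beside 6.44% of all genes higher and 4.48% lower, and the median log2 fold change was 1.84 against 0.01 over all genes. None passed after adjustment in edgeR, and DESeq2 gave 8 at the same unadjusted level. Lgals7, a galectin of stratified epithelia, stood at 86.4, 80.8, 1064, 379, 2466 and 940 CPM (log2 fold change 3.20, adjusted p = 0.17), and S100a14 at 159, 119, 815, 441, 307 and 198 CPM (2.27, adjusted p = 0.17). Both Prepuberty libraries lay under both DCIS libraries for each gene. The count was 6 without Prepuberty 1, Prepuberty 2 or DCIS 2, 7 without DCIS 1, 5 with 3 or more markers in the rule and 5 with library sums thinned to the smallest. The summed list stood at 826, 1240, 3438, 1866, 3666 and 2806 CPM in members and at 764, 1071, 2299, 1326, 3317 and 2088 CPM in the other epithelial cells, so both kinds of cell had lower sums in Prepuberty than in DCIS and Tumor. Gja1, the main connexin of myoepithelial cells, stood at 81, 109, 428, 505, 212 and 661 CPM (2.41, adjusted p = 0.17).

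Other lists are given without the genes of the rule, beside the shares of all genes tested. Those were 6.44% higher and 4.48% lower in DCIS against Prepuberty, and 7.96% and 9.14% in Tumor against DCIS. In Tumor against Prepuberty they were 9.7% and 9.11%. Counts near these shares, as for junction and retinoic acid genes in Tumor against DCIS, are given as a description. Kallikreins had 4 of 5 higher and none lower in DCIS against Prepuberty (median 4.19), and connexins 2 of 3 higher (median 1.97). Proliferation genes had 10 of 27 higher and none lower in that contrast (median 1.36), with cells chosen by a limit on cell cycle genes. In Tumor against Prepuberty they had 12 of 27 higher (median 1.58), a count that became 24 without Prepuberty 1, 6 without Prepuberty 2 and 7 without Tumor 1, so it rests on which libraries are set against each other. Of the 27, Cdkn2a alone passed, an inhibitor and not a driver of the cycle. Hormone-sensing genes had 6 of 13 lower and none higher in Tumor against Prepuberty (median -1.44). In Tumor against DCIS they had 6 lower and 2 higher (median -1.36). Their sum was highest in both Tumor libraries, at 4578, 4705, 4796, 4921, 6279 and 8778 CPM in members. S100a6 alone held 3096, 3629, 4217, 3739, 5168 and 7280 CPM of it. In Tumor against DCIS secretory luminal progenitor genes had 5 of 14 lower and 1 higher (median -0.31). YAP and TEAD targets had 6 of 21 lower and 1 higher (median -0.41), and hypoxia and glycolysis genes 5 of 25 higher and 1 lower (median 0.74). Retinoic acid genes had 3 of 12 higher and 4 lower in DCIS against Prepuberty (median -0.27), and 1 higher and 2 lower in Tumor against DCIS (median -0.22). Junction and desmosome genes had 3 of 19 higher and 1 lower in the former contrast (median 0.16), and none higher and 2 lower in the latter (median -0.26). Immediate early and stress genes, which can respond to dissociation, had 7 of 26 higher and 1 lower in DCIS against Prepuberty. They had 6 in each direction in Tumor against DCIS, and 7 higher and 2 lower in Tumor against Prepuberty. Their sum stood at 5440, 8281, 11922, 12645, 11412 and 6848 CPM in members. Hspb1, a small heat shock protein, stood at 1577, 2123, 5302, 5215, 834 and 1527 CPM (log2 fold change -2.59 for Tumor against DCIS, adjusted p = 0.064).

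A last comparison asked whether a difference between states was larger or smaller in members than in the other epithelial cells of the same libraries, with the library as a block. Of 11234 genes, 2 passed for DCIS against Prepuberty (0.0178%) and 1 for Tumor against DCIS (0.0089%), with 435 and 827 at an unadjusted p under 0.05. Csn3, which encodes kappa-casein, stood at 527, 234, 206, 254, 1501 and 111 CPM in members and at 275, 148, 215, 345, 366 and 28.4 CPM in the others. The log2 ratio of members to others was 0.93, 0.64, -0.06, -0.43, 2.02 and 1.79, so members were the higher cells in both Tumor libraries and the lower in both DCIS libraries (difference 2.18, SE 0.26, adjusted p = 0.0086). Cells with exactly 3 markers stood at 758, 202, 427, 797, 1036 and 217 CPM, above members in 4 of 6 libraries, and in Tumor 2 the cells with 0 markers, at 147 CPM, were also above members. The call was lost without Tumor 2 (adjusted p = 0.057), at a mitochondrial limit of 5% (adjusted p = 0.12) and with 3 or more markers (adjusted p = 0.17), and with 5 or more markers in the rule, which left out Tumor 1, the direction was the opposite. Cxcl10, an interferon-induced chemokine, stood at 58.5, 7.57, 128, 87.5, 54.4 and 10.5 CPM in members and at 145, 24.7, 100, 51.7, 61.1 and 10.5 CPM in the others, and its ratio was higher in DCIS than in Prepuberty (difference 1.97, SE 0.29, adjusted p = 0.046). Immune cells held 54.8 to 1530 CPM of Cxcl10. Saa3 had a lower ratio in DCIS than in Prepuberty (difference -1.95, SE 0.27, adjusted p = 0.046). Without the highest doublet scores, the difference for Saa3 was -0.34 (adjusted p = 1). Without DCIS 2 neither call was kept (adjusted p = 0.11 for Cxcl10 and 0.13 for Saa3), nor with 3 or more markers (adjusted p = 0.14 and 0.35) or thinned sums (adjusted p = 0.70 and 0.50). Cxcl10 was also lost with 5 or more markers (adjusted p = 0.46). Immune cells held more of both genes than members in all 6 libraries, and what their RNA adds to either side was not tested.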

How the data were processed

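The authors deposited, per library, a matrix of raw UMI counts per gene and cell barcode made with Cell Ranger 3.0.2 from 10x 3′ libraries. The reference build of these matrices is not given in the sources used here. From these counts, cells were kept and members chosen by the rule in the report, and doublets were scored with Scrublet in scanpy 1.11.5. UMIs of members were summed per library, so that the library was the replicate, and tested with edgeR 4.0.16 (R 4.3.3; TMM, filterByExpr, quasi-likelihood test, Benjamini-Hochberg adjustment over all genes, threshold 0.05) with all 3 states in 1 fit. The difference between members and other epithelial cells across states was an interaction term with library as a block. DESeq2 1.42.0 was an alternative. Library depth was 30041293 to 61479653 UMIs over all barcodes. CPM are relative to all UMIs of the cell group. Intervals and floors cover counting error only, and a floor is 3 counts. The steps were tested on simulated data.

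Named genes were, per contrast of states, the 8 largest changes in each direction among genes past the threshold with a mean of 20 CPM or more, or where fewer than 4 passed the 8 smallest p-values, with the genes of the rule, Epcam and the T antigen. For the interaction 5 per direction were named, for members against other cells the 20 highest and 10 lowest by the weakest library, and up to 4 examples a list. The members and lists were chosen with earlier results of these data known. Alternatives covered the tool, filters, thinning, doublets, the number of markers, each left-out library and a replicate block.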

Additional observations from a re-analysis of the deposited data

Results flagged for a closer look

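The genes Cxcl10, Saa3 and Csn3 differed between members and other Epcam-positive cells in how they changed with state, by the interaction term of edgeR. Cxcl10 had a log2 fold change from Prepuberty to DCIS that was 1.97 higher in members (adjusted p = 0.046). For Saa3 it was -1.951, that is lower in members (adjusted p = 0.046). Csn3 had a log2 fold change from DCIS to Tumor that was 2.18 higher in members (adjusted p = 0.0086). Each call was lost in at least 1 alternative given in the report or in the next section, and no explanation was tested.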

How the results depend on the processing

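With 2 libraries a state, the number of genes past the threshold moved widely and the cause was not tested. For DCIS against Prepuberty, Tumor against DCIS and Tumor against Prepuberty it was 44, 129 and 242 by DESeq2, 336, 578 and 869 with no filter on low counts, and 41, 110 and 139 with 5 or more markers. With 3 or more markers it was 0, 14 and 36, with library sums thinned 3, 21 and 70, and with only the libraries compared 0, 4 and 9. Leaving out 1 library gave 0 to 3, 0 to 50 and 1 to 70. Without the highest doublet scores the latter 2 counts were 0 and 0. Tumor against DCIS gave 15 at a mitochondrial limit of 5% and 7 without the genes of the rule.

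The interaction counts for DCIS against Prepuberty and Tumor against DCIS were 60 and 124 with no filter, 35 and 168 with 5 or more markers, 0 and 0 with 3 or more, 5 and 12 without doublet scores, and 4 to 60 and 0 to 201 with 1 library left out. Thinned sums gave 0 and 11. For Tumor against DCIS alone, DESeq2 gave 16 and the mitochondrial limit of 5% gave 0. Csn3 reversed to -10.24 (adjusted p = 0.18) with 5 or more markers, where Tumor 1, with 5 cells, was left out. The 33 fold changes between states that were recomputed kept their direction in all 557 values, of which 29 lost and 104 gained the threshold. Of 45 values for the 3 interaction genes, 11 lost it. Lgals7, S100a14, Gja1, Hspb1, Nfkbia and Lcn2 were list examples among the 33 fold changes. List examples outside the 33, and the log2 ratios between members and other cells, were not recomputed singly.

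The share ratio of DCIS to Prepuberty was 3.07 over all kept cells and 0.555 to 1.27 with 1 library left out. That of Tumor to DCIS was 0.283 with 3 or more markers, 0.344 without the limit on the 6 genes, 0.269 over all kept cells and 0.135 to 0.239 with 1 library left out. Genes higher in members in every library numbered 762 against other cells within the same limits and 537 to 756 with 1 library left out. Those 2-fold lower numbered 50 with a pseudocount of 1, 31 thinned, 45 within the limits and 19 to 28 with 1 library left out, and those 2-fold higher 3, 5 and 0 to 1 in the latter 3.

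Libraries with the same number correlated in their deviations at 0.16, 0.04 and 0.07. From 2 libraries a state, these values cannot tell whether the numbers pair libraries. With a replicate block the counts were 2, 2 and 23, and Saa3 in Tumor against Prepuberty lost its call (adjusted p = 0.056).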
